A study of Mus musculus with 12 samples.

Results

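Malat1, Neat1, Miat, Meg3, Rian, Mirg, Snhg11, Gas5 and Snhg1 are 9 long noncoding RNA genes, chosen by name from the 53379 genes counted in each library of a study of the transcriptional regulator SnoN. SnoN, encoded by Skil, binds SMAD proteins and restrains TGF-beta signalling. The tissue was the external granule layer (EGL) of the cerebellum, cut by laser capture from the central lobules at postnatal day 6, when granule neuron precursors divide there, and all mice were of strain C57BL/6. One group held conditional SnoN knockout mice (KO, libraries KO2, KO3, KO4, KO5, KO6 and KO8) and the other control littermates labelled wild type (WT, libraries WT1, WT2, WT3, WT5, WT6 and WT7). The sources used here give neither the driver of the conditional deletion nor the deleted exons, and they do not tie libraries to animals, so the spread that the p-values measure could in part be technical. KO4 and WT2 carry the submitters' outlier mark from a robust principal component analysis, and the comparison used the other 5 KO and 5 WT libraries. KO2 has a KO title but a wild-type genotype tag and was kept as KO.

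Long noncoding RNAs are transcripts that act without being translated into protein, and those studied here fall into 3 classes of 3. Malat1, Neat1 and Miat stay in the nucleus: Malat1 gathers in nuclear speckles rich in splicing factors, Neat1 is the scaffold of paraspeckles, and Miat (also called Gomafu) is a neuronal RNA with repeats that bind the splicing factor SF1. Meg3, Rian and Mirg are transcribed from the maternal chromosome of the imprinted Dlk1-Dio3 domain, and Rian and Mirg carry clusters of box C/D snoRNAs and microRNAs. Gas5, Snhg1 and Snhg11 are host genes whose introns are processed into snoRNAs, small RNAs that guide chemical modification of ribosomal and other RNAs, and the spliced Gas5 RNA is a known target of nonsense-mediated decay.

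The promoters below are shown because Gas5 and Snhg1 varied together across libraries, and because Gas5 and Meg3 share a motif. Each is the 300 bases from 250 before to 50 after the RefSeq start site, on the plus strand of GRCm38.p6, taken from chr1:161034916-161035215 for Gas5, chr19:8723237-8723536 for Snhg1 and chr12:109540746-109541045 for Meg3. Capitals mark TGACGTCA, the cAMP response element palindrome, and the run of pyrimidines at the start site of Gas5 and Snhg1.
Gas5: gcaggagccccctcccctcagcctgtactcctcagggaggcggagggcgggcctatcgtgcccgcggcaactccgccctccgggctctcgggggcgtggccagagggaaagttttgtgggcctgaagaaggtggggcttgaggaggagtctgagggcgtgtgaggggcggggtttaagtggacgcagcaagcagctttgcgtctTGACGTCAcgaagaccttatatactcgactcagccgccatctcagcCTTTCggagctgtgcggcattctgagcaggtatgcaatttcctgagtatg
Snhg1: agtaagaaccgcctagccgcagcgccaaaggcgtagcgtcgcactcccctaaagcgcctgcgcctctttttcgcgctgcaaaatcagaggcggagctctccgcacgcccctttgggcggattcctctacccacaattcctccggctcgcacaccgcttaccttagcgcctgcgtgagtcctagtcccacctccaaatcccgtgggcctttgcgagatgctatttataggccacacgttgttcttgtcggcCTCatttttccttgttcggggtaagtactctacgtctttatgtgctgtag
Meg3: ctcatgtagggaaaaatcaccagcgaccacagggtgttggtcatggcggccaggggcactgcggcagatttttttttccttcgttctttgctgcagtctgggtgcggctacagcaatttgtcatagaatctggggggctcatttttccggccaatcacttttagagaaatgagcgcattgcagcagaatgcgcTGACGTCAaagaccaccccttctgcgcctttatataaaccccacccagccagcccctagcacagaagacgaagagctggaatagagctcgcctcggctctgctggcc

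The RefSeq table held 10 windows for 8 of the genes and none for Neat1. TGACGTCA, which reads the same on both strands, occurs in 1.79% of the 32851 windows of that table, with its first base at position -46 from the start in Gas5 and at -57 in Meg3. TATAAA, searched on both strands, occurs in 13.6% of windows, among them those of Meg3 and Snhg1. A C followed by at least 4 further pyrimidines at the start itself, the hallmark of terminal oligopyrimidine transcripts, which code largely for the translation machinery, occurs in 2.51% of windows. It was found for Gas5 and Miat, whereas the run at the annotated Snhg1 start is 3 bases long. Neither the E-box CACGTG (7.15% of windows) nor the SMAD-binding palindrome GTCTAGAC (0.213%) occurs in any of the 10 windows. These matches describe letters, not bound sites.

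The repeats of Miat are shown because they define how this RNA meets the splicing machinery. The 9163-base transcript (GENCODE M21, chromosome 5, minus strand) holds 6 copies of TACTAAC, read on the transcript strand and written as DNA. Only 2 of 13432 transcripts examined, 1 a gene for the tested genes, hold as many, and 91.5% hold none. The stretch below covers transcript bases 4923 to 5072, with its 3 copies in capitals.
Miat: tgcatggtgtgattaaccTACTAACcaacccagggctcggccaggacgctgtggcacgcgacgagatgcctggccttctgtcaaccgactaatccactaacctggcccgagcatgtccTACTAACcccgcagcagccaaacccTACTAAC

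Library totals ran from 7520076 to 15083086 gene counts, and the 9 genes together took between 0.0294% (WT6) and 0.0570% (WT2) of them. Summed markers of granule neuron precursors were 1101 to 1270 CPM in KO and 1029 to 1286 CPM in WT (TMM-scaled counts per 1000000 counts, used for all levels below). All 8 precursor markers were detected, but so were the markers of every other cell type examined, so detection cannot decide on the layer label. Markers of Purkinje cells summed to 333 to 588 CPM in KO and 271 to 375 CPM in WT, and those of Bergmann glia and astrocytes to 1037 to 1436 CPM in KO and 801 to 1245 CPM in WT. Those of meninges summed to 510 to 947 CPM in KO and 517 to 894 CPM in WT, and those of erythrocytes to 413 to 701 CPM in KO and 364 to 680 CPM in WT. Skil averaged 30.7 ± 6.38 CPM in KO and 49.9 ± 7.98 CPM in WT (SD, n = 5 each), and each KO library lay below each WT library. Skil itself was not called, with a log2 fold change of -0.70 (edgeR adjusted p = 0.124), and it was called by DESeq2 (adjusted p = 0.0107). In bulk RNA, fewer cells of a type and less RNA per cell cannot be told apart.

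Taken by level, the 9 RNAs covered a wide range of counts in these libraries. Per kilobase of annotated exons, Gas5 led with 47.0 CPM per kb in KO and 37.0 CPM per kb in WT. Snhg1 followed with 20.5 CPM per kb in KO and 14.3 CPM per kb in WT, and Malat1 with 12.9 CPM per kb in KO and 11.4 CPM per kb in WT. Among the 13442 genes tested, the WT level of Gas5 exceeded 88.3%, that of Snhg1 74.4% and that of Malat1 70.0%. Miat, at 2.25 CPM per kb in WT, exceeded 34.1%, Rian, at 1.05 CPM per kb, 19.9%, and Meg3, at 0.379 CPM per kb, 6.41%. Mirg (0.116 CPM per kb in WT), Snhg11 (0.0685) and Neat1 (0.0274) lay below nearly all genes tested. In this order the WT libraries of Snhg1 and Malat1 overlapped, as did those of Mirg and Snhg11 and those of Snhg11 and Neat1, while all other neighbours were separate in all 5 WT libraries. The place of Rian depends on the length used: per kilobase of the longest transcript, Rian had 2.69 CPM per kb in KO and 2.36 CPM per kb in WT, just above Miat with 2.44 CPM per kb in KO and 2.28 CPM per kb in WT, and their WT libraries overlapped. By this level Gas5 ranked 21, Snhg1 42 and Malat1 53 among 12341 noncoding genes. These levels count only reads assigned to 1 gene, and 64.4% to 67.6% of records were not unique, so they need not give the abundance of each RNA in the layer. Annotated exons cover the whole 2969-base span of Snhg1 and 3760 of 4118 bases of Gas5, so their values per kb are not those of the spliced RNAs alone.

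**Figure D1:**
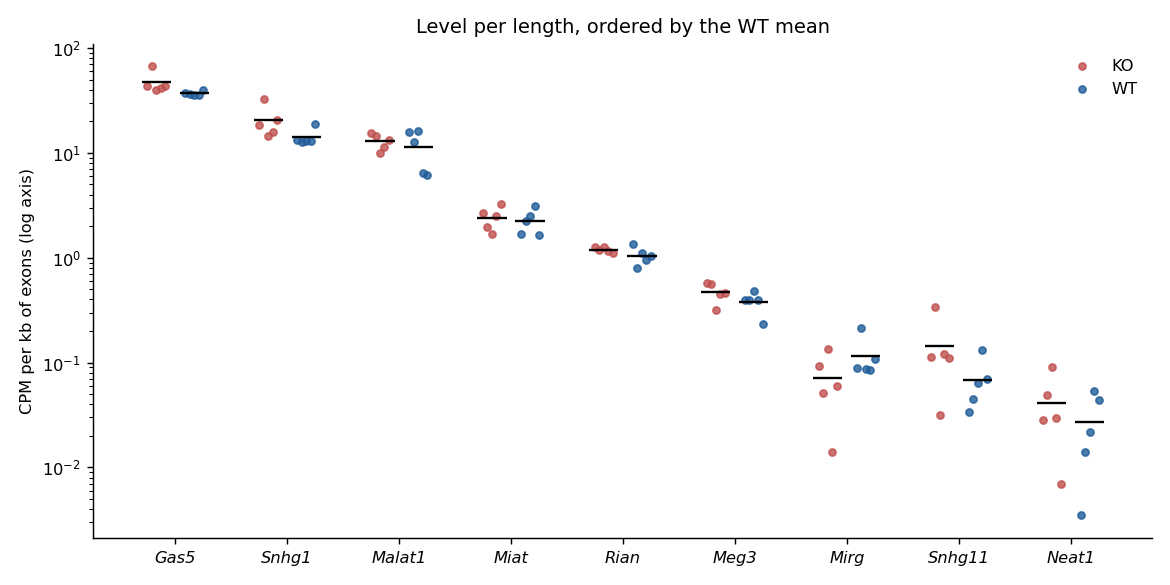
Level of each RNA in CPM per kilobase of union exons (log axis), KO left of WT, 1 point per library for 5 KO and 5 WT libraries, bars at the group means. Gas5 stands at the top (47.0 in KO and 37.0 CPM per kb in WT) and Neat1 at the bottom.

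None of the 9 RNAs was called different between KO and WT in the fit of 5 KO and 5 WT libraries with the filter on low counts, although Gas5 and Snhg1 passed the threshold in some alternatives given below. Of 6 that passed the filter on low counts (Malat1, Miat, Meg3, Rian, Gas5 and Snhg1), 0 had an adjusted p under 0.05 by edgeR, whose quasi-likelihood test called 0.0223% of all genes tested (3 of 13442). DESeq2, which called 4.35% of the genes it gave an adjusted p, also called 0 of the 6, with adjusted p of 0.0994 for Gas5 and 0.0856 for Snhg1. Unadjusted p-values under 0.05 were seen for 2, Gas5 and Snhg1, beside 21.8% of all genes tested, and 11.8% in the higher direction. Those 6 had log2 fold changes above 0, as did 50.1% of all genes tested, and their median was 0.26. The median was 0.0013 over all genes tested and 0.13 over the 751 annotated noncoding genes tested, of which 11.3% had an unadjusted p under 0.05. Scaled by library size alone, the unadjusted split over all genes tested was 884 higher and 1988 lower, beside 1585 higher and 1340 lower in the main scaling, and the 6 RNAs kept their direction. The KO and WT libraries overlapped for each of the 9 RNAs, where 2.35% of genes tested did not overlap. Neat1, Mirg and Snhg11 did not pass the filter, and their fold changes come from a fit of all 27688 genes with counts, a choice made after seeing that they were lost. That fit called 3.49% of its genes, 0 of these 3 RNAs and, of the other 6, Snhg1 (edgeR adjusted p = 0.00596).

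**Figure D2:**
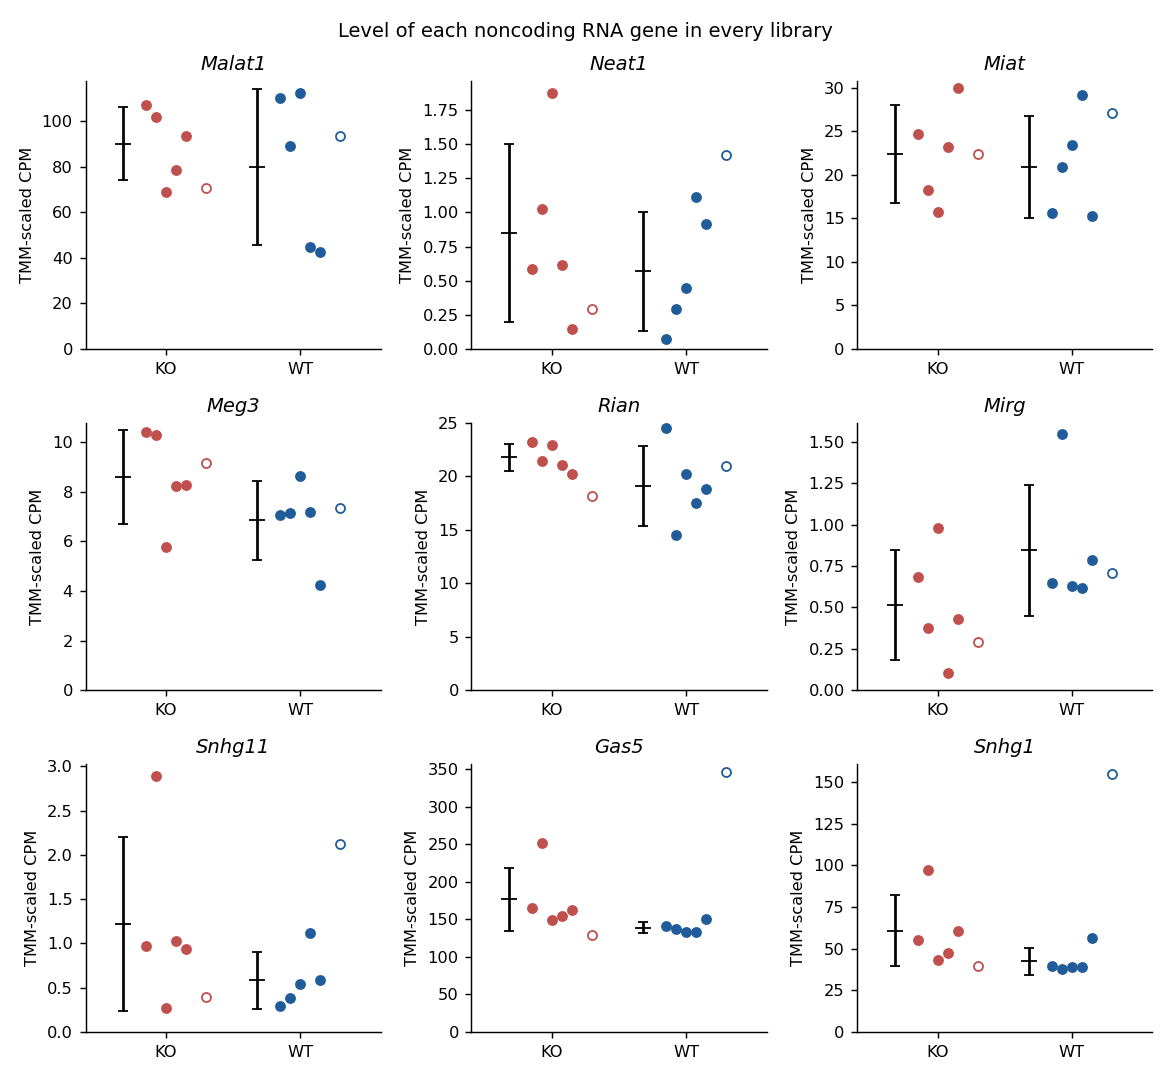
TMM-scaled CPM of each RNA in every library, KO left of WT in each panel. Filled points are the 5 KO and 5 WT libraries compared, open points the marked libraries KO4 and WT2, and bars show the mean and SD of the filled points. Gas5 and Snhg1 show high values in KO3 and WT2, and Malat1 shows 2 low WT libraries.

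**Figure D3:**
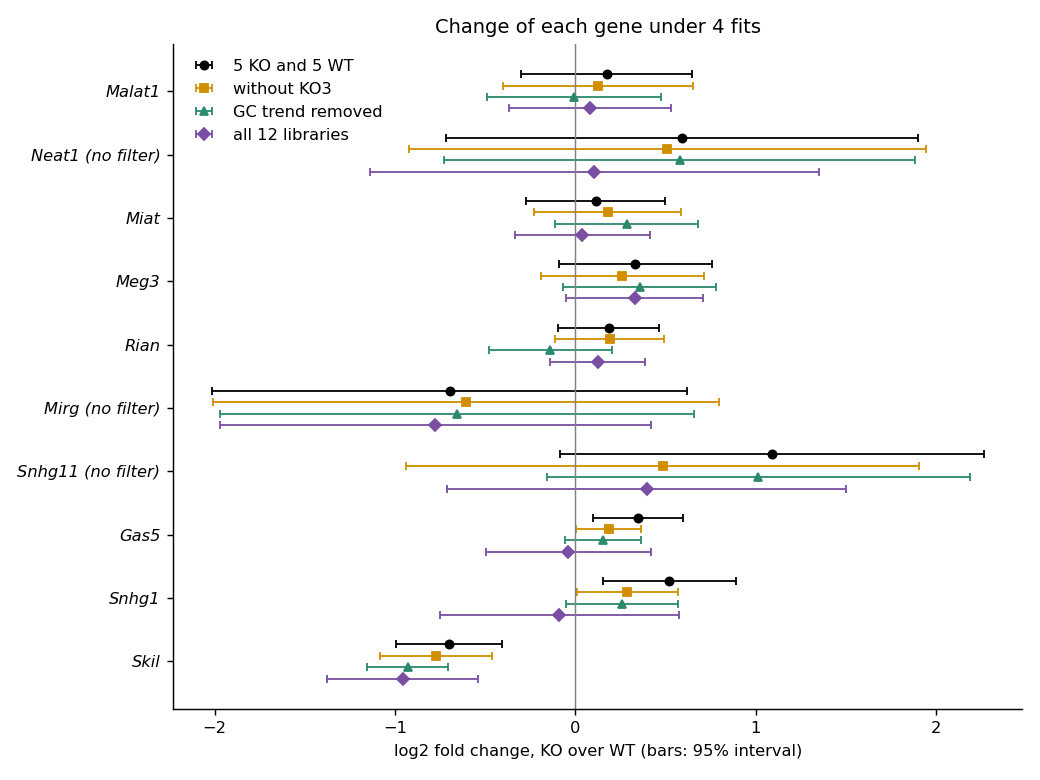
Log2 fold change of each RNA and of Skil, KO over WT, with bars of 1.96 standard errors (95% intervals), in 4 fits. Gas5 and Snhg1 lie right of 0 in the fit of 5 KO and 5 WT libraries (0.35 and 0.52) and left of 0 in that of all 12 libraries (-0.040 and -0.090), whereas Skil stays left of 0 in each fit.

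Among the nuclear RNAs, Malat1 (ENSMUSG00000092341.2, chr19:5795690-5802672, minus strand, GRCm38) is an unspliced lincRNA of 6983 bases. It measured 107, 102, 69.0, 78.7 and 93.8 CPM in KO2, KO3, KO5, KO6 and KO8, against 110.2, 89.3, 113, 44.7 and 42.6 CPM in WT1, WT3, WT5, WT6 and WT7. WT6 and WT7 were the lowest of all libraries, WT1 and WT5 exceeded each KO library, and WT3 lay among the KO libraries, so the groups overlapped. The means were 90.2 ± 16.0 CPM in KO and 79.9 ± 34.3 CPM in WT (SD, n = 5 each). Between the groups the log2 fold change was 0.17 with a standard error of 0.24 (edgeR adjusted p = 0.696), and it was -0.0082 once each library's trend of counts on GC content was removed.

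Neat1 (ENSMUSG00000092274.2, chr19:5824708-5845478, minus strand) lies 22.0 kb from Malat1. It had 2 to 21 reads in KO libraries and 1 to 14 reads in WT libraries. Its levels were 0.849 ± 0.652 CPM in KO and 0.568 ± 0.435 CPM in WT (SD, n = 5 each). KO5 was the highest at 1.87 CPM, above each WT library, and the other KO libraries lay inside the WT range. Its log2 fold change of 0.59 had a standard error of 0.67 (edgeR adjusted p = 0.647), so no difference was detectable at this depth, and without KO5 it was 0.055.

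Miat (ENSMUSG00000097767.8, chr5:112213228-112229395, minus strand) measured 24.7, 18.2, 15.8, 23.2 and 30.0 CPM in KO2, KO3, KO5, KO6 and KO8, against 15.6, 20.9, 23.4, 29.2 and 15.3 CPM in WT1, WT3, WT5, WT6 and WT7. High and low libraries were found in both groups. The means were 22.4 ± 5.60 CPM in KO and 20.9 ± 5.80 CPM in WT (SD, n = 5 each), with a log2 fold change of 0.11 and a standard error of 0.20 (edgeR adjusted p = 0.760). Annotated genes share 32.1% of the exon bases of Miat, most of them the opposite-strand lincRNA Gm26953, and the library kit does not mark strand, so reads there could be lost as ambiguous. Gm26953 itself had 8 reads over the KO libraries and 7 over the WT libraries. The shared part is 7.72% for Malat1, 1.85% for Neat1 and 7.32% for Meg3. These shares leave out snoRNA and microRNA genes nested in a host on the same strand.

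The proteins that these nuclear RNAs work with were examined as lists. Of 20 paraspeckle proteins tested, 0 passed the adjusted threshold, and at an unadjusted p under 0.05, which 11.8% of genes tested met in the higher and 9.97% in the lower direction, KO exceeded WT for 5 and lay below it for 4. Dazap1, an RNA-binding protein, averaged 123 ± 20.9 CPM in KO and 159 ± 11.9 CPM in WT, and Hnrnpk, which takes part in processing the long Neat1 isoform, 987 ± 154 CPM in KO and 763 ± 86.8 CPM in WT. Fam98a averaged 43.3 ± 8.37 CPM in KO and 57.0 ± 4.81 CPM in WT (SD, n = 5 each for these and the following genes). The median log2 fold change was 0.08 in this list.

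Of 20 nuclear speckle proteins, 3 met that unadjusted level in the higher and 6 in the lower direction, and 0 passed the adjusted threshold. U2af2, which recognizes the polypyrimidine tract of introns, averaged 101 ± 24.6 CPM in KO and 142 ± 19.3 CPM in WT. Rnps1, a part of the exon junction complex, averaged 24.3 ± 5.63 CPM in KO and 34.5 ± 3.61 CPM in WT, and Prpf8, a core protein of the spliceosome, 60.4 ± 13.3 CPM in KO and 83.5 ± 14.4 CPM in WT. The median log2 fold change of the speckle list was 0.09. In all 12 libraries, where 3.47% of all genes tested met the unadjusted threshold, 0 genes of either list did.

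Of the Dlk1-Dio3 RNAs, Meg3 (ENSMUSG00000021268.17, chr12:109541001-109571726, plus strand) is the first of the maternal transcripts. Its level was 10.4, 10.3, 5.79, 8.22 and 8.28 CPM in KO2, KO3, KO5, KO6 and KO8, against 7.08, 7.14, 8.64, 7.18 and 4.25 CPM in WT1, WT3, WT5, WT6 and WT7. KO2 and KO3 exceeded all WT libraries, KO5 lay below all WT libraries but WT7, and WT7 was the lowest. The means were 8.60 ± 1.88 CPM in KO and 6.86 ± 1.60 CPM in WT (SD, n = 5 each). Its log2 fold change of 0.33 had a standard error of 0.22 (edgeR adjusted p = 0.373), and it was 0.19 without WT7 and 0.14 with KO2 counted as wild type.

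Rian (ENSMUSG00000097451.10, chr12:109603940-109661716, plus strand) begins 32.2 kb beyond Meg3. It measured 23.2, 21.4, 22.9, 21.1 and 20.2 CPM in KO2, KO3, KO5, KO6 and KO8, against 24.5, 14.5, 20.2, 17.4 and 18.8 CPM in WT1, WT3, WT5, WT6 and WT7. The KO libraries lay close together, inside the range of the WT libraries. The means were 21.7 ± 1.25 CPM in KO and 19.1 ± 3.70 CPM in WT (SD, n = 5 each). For Rian the log2 fold change was 0.18 with a standard error of 0.14 (edgeR adjusted p = 0.451), and it turned to -0.14 with the GC trend removed. Rian has the lowest GC content of the 9 RNAs, at 35.8%.

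Mirg (ENSMUSG00000097391.8, chr12:109729764-109749460, plus strand), the host of a microRNA cluster 68.0 kb beyond Rian, was the only one of the 9 RNAs with a lower mean in KO. It had 1 to 11 reads in KO libraries and 5 to 16 in WT libraries, or 0.514 ± 0.332 CPM in KO and 0.845 ± 0.396 CPM in WT (SD, n = 5 each). WT3 was the highest library and KO6 the lowest, and the groups overlapped. In that fit of all genes with counts, the log2 fold change of Mirg was -0.70 with a standard error of 0.67 (edgeR adjusted p = 0.569), and it was -0.39 without WT3 and -0.45 without KO6.

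No pair of the maternal RNAs was correlated past the threshold. Across the 10 libraries Pearson's r of log2 CPM was 0.24 between Meg3 and Rian, -0.40 between Meg3 and Mirg and -0.41 between Rian and Mirg (permutation p adjusted over 9 pairs 0.633, 0.372 and 0.372), with Spearman's rho of 0.21, -0.53 and -0.10 (adjusted p 0.784, 0.321 and 0.784). Low counts of Mirg add counting error to its values. Inside Rian the annotation places 13 snoRNA and 4 microRNA genes, inside Mirg 14 microRNA genes and inside Meg3 2 microRNA genes, and together these small RNA genes collected 1 read in the 12 libraries, in Rian. Annotated exons cover 18234 of 57777 bases of Rian, 7292 of 19697 of Mirg and 18089 of 30726 of Meg3. Reads on small RNA genes inside those exons could be set aside as ambiguous, and which genes lie there was not examined. For genes inside exons this count cannot show whether they were captured.

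Of 6 protein genes and neighbours of the domain, 4 were tested and 0 had an unadjusted p under 0.05. Begain, a neuronal synapse-associated protein, averaged 1.97 ± 1.48 CPM in KO and 2.51 ± 1.24 CPM in WT, and Dlk1, the paternally expressed Notch-family ligand that names the domain, 1.03 ± 0.703 CPM in KO and 0.975 ± 0.504 CPM in WT. Wdr25 averaged 10.9 ± 2.88 CPM in KO and 10.6 ± 2.68 CPM in WT. Rtl1 and Dio3 had too few counts to test, and the median log2 fold change was 0.027.

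Imprinted genes elsewhere, 24 tested of 29, had 5 in the higher and 5 in the lower direction at the unadjusted level, with 0 past the adjusted threshold. Over all genes tested, 11.8% were higher and 9.97% lower at that level. Mest averaged 20.3 ± 4.20 CPM in KO and 30.1 ± 2.47 CPM in WT (edgeR adjusted p = 0.124). Gnas, the stimulatory G protein alpha subunit, averaged 22.0 ± 4.45 CPM in KO and 32.6 ± 4.70 CPM in WT, and the noncoding Peg13 69.6 ± 20.4 CPM in KO and 105 ± 13.8 CPM in WT. The median log2 fold change of the list was 0.11. In all 12 libraries 0 of these genes were higher and 1 lower at that level.

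The snoRNA hosts held the only members with an unadjusted p under 0.05. Gas5 (ENSMUSG00000053332.13, chr1:161034422-161038539, plus strand) measured 165, 251, 149.7, 155 and 163 CPM in KO2, KO3, KO5, KO6 and KO8, against 141, 137, 133, 134 and 149.9 CPM in WT1, WT3, WT5, WT6 and WT7. KO3 stood well above the others, 4 of 5 KO libraries exceeded the highest WT library, and KO5 lay just below it. The means were 177 ± 42.1 CPM in KO and 139 ± 6.86 CPM in WT (SD, n = 5 each). The log2 fold change was 0.35 with a standard error of 0.13, an unadjusted p of 0.0143 and an adjusted p of 0.158 in edgeR, and the two-sided exact permutation p was 0.0159, where 5 against 5 can reach 0.00794.

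Snhg1 (ENSMUSG00000108414.1, chr19:8723475-8726443, plus strand) measured 55.4, 97.2, 43.3, 47.5 and 60.8 CPM in KO2, KO3, KO5, KO6 and KO8, against 39.7, 37.5, 38.9, 39.0 and 56.6 CPM in WT1, WT3, WT5, WT6 and WT7. KO3 was again the highest, all KO libraries exceeded 4 of the WT libraries, and WT7 exceeded 3 KO libraries. The means were 60.8 ± 21.4 CPM in KO and 42.3 ± 7.996 CPM in WT (SD, n = 5 each). The log2 fold change was 0.52 with a standard error of 0.19, an unadjusted p of 0.0130 and an adjusted p of 0.154 in edgeR; its exact permutation p (two-sided) was 0.0635.

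These differences depended on KO3 and on the marked libraries. Without KO3 the log2 fold changes were 0.19 for Gas5 and 0.29 for Snhg1 (edgeR adjusted p = 0.365 for each). The marked libraries ran the other way, with 129 CPM of Gas5 in KO4 against 346 CPM in WT2. For Snhg1 they held 39.4 CPM (KO4) against 155 CPM (WT2). With all 12 libraries the log2 fold changes were -0.040 for Gas5 and -0.090 for Snhg1. Without KO5, in a fit that called 22.9% of all genes tested (3102 genes), both passed, with adjusted p of 0.0177 for Gas5 and 0.0196 for Snhg1.

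Library-wide measures also differed between libraries. Genes of low GC content (under 45%) stood above those of high GC content (over 55%) by 0.43 log2 units in KO3 and 0.84 in WT2, against -0.26 in KO4, relative to the mean of the 10 libraries. In the other KO libraries this contrast was 0.41, -0.26, 0.05 and 0.35 (KO2, KO5, KO6 and KO8), and in the other WT libraries it ran from -0.41 to -0.0086. The mitochondrial share of counts was 2.08% to 4.22% in the 5 KO libraries, with KO3 highest, and 1.53% to 2.65% in the 5 WT libraries, with 1.81% in KO4 and 4.87% in WT2. Of 9 Purkinje cell markers tested, 5 had an unadjusted p under 0.05, beside 21.8% of all genes tested. Summed, the Purkinje cell markers were 306 CPM in KO4 and 731 CPM in WT2, and no marker of the list was at 0 in all libraries. Markers of differentiating and maturing granule neurons, 5 of 8 tested at that level, summed to 2651 to 5399 CPM in the 5 KO libraries and 2247 to 4200 CPM in the 5 WT libraries, with 3286 CPM in KO4 and 4728 CPM in WT2. Markers of molecular layer interneurons, 3 of 5 tested at that level, summed to 88.7 to 138 CPM in the KO libraries and 96.5 to 115 CPM in the WT libraries. Most of these last 2 sums came from a single gene each, Neurod1 and Lhx1 (Lhx1 means 97.0 CPM in KO and 83.8 CPM in WT). Gad1 is in both the Purkinje cell and the interneuron list, so these lists are not independent. Directions differed within lists: Neurod1 averaged 3628 CPM in KO and 2582 CPM in WT, and Cbln1 213 CPM in KO and 271 CPM in WT. Other lists had 2 of 10 (Bergmann glia and astrocytes), 2 of 8 (granule neuron precursors), 2 of 5 (oligodendrocyte lineage), 1 of 8 (meninges) and 0 (microglia, endothelium and pericytes, erythrocytes) at that level. Gas5 has 42.3% and Snhg1 40.5% GC, and with the GC trend removed their log2 fold changes were 0.15 and 0.26 (edgeR adjusted p = 0.497 and 0.431). The part of cell makeup and RNA quality in these differences was not tested.

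Snhg11 (ENSMUSG00000044349.15, chr2:158375638-158386145, plus strand) is known as a neuronal transcript and is annotated as protein-coding in GENCODE M21. It had 3 to 31 reads in KO libraries and 4 to 9 in WT libraries, or 1.22 ± 0.986 CPM in KO and 0.583 ± 0.320 CPM in WT (SD, n = 5 each). KO3 was the highest at 2.89 CPM and the other KO libraries lay between 0.267 and 1.03 CPM, inside the WT range except at the low end. Its log2 fold change was 1.09 with a standard error of 0.60 (edgeR adjusted p = 0.329), and 0.48 without KO3.

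Gas5 and Snhg1 varied together across libraries. Pearson's r of log2 CPM was 0.950 over the 10 libraries and Spearman's rho 0.903 (permutation p adjusted over 9 pairs 0.00180 and 0.00576). It was 0.965 within the 5 KO and 0.879 within the 5 WT libraries. Without WT5 and KO3, the libraries farthest from the median of Gas5, r was 0.876 (permutation p adjusted over 9 pairs 0.0643). Genes outside the 9 RNAs reached higher r: Cd164 (0.970) and Plagl1 (0.951) with Gas5, and Magoh, Cox7b and Pls3 (0.969 to 0.973) with Snhg1. The share of all gene pairs with such an r was not determined. The permutation p therefore cannot show a link particular to Gas5 and Snhg1. Snhg11 had r of 0.776 with Snhg1 and 0.768 with Gas5 (adjusted permutation p 0.0479 and 0.0506, rho 0.479 and 0.467). Without KO5 and KO3 r was 0.473 and 0.465, so they rest on those libraries. No pair of the nuclear RNAs passed, with r of -0.56 for Malat1 and Neat1, 0.07 for Malat1 and Miat and -0.19 for Neat1 and Miat.

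**Figure D4:**
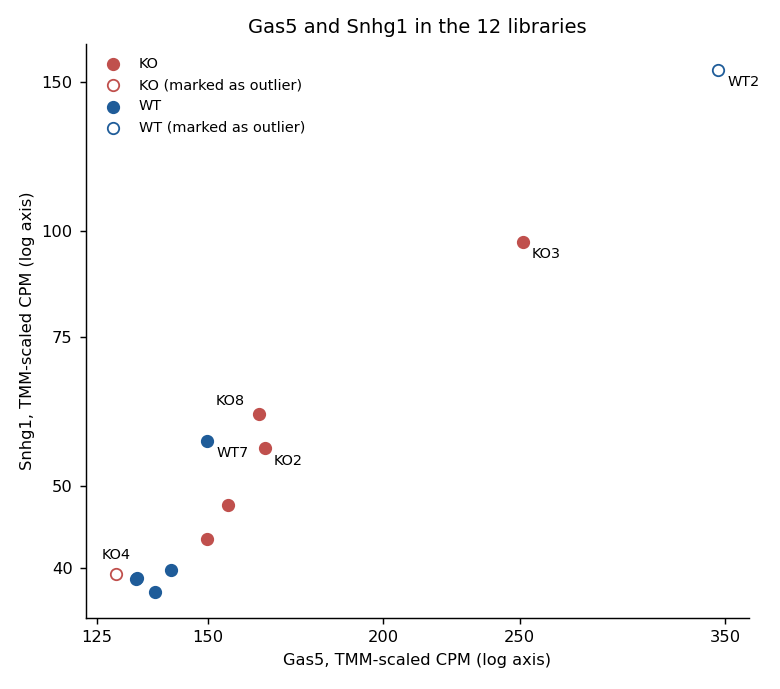
TMM-scaled CPM of Gas5 and Snhg1 in the 12 libraries (log axes), KO and WT in different colours, open points marked as outliers by the submitters. The points follow 1 line from KO4 and most WT libraries at the low end to KO3 (251 and 97.2 CPM) and WT2 (346 and 155 CPM) at the high end.

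The annotation places 10 snoRNA genes inside Gas5, 8 inside Snhg1 and 2 inside Snhg11. These collected 0 reads in Gas5, 0 in Snhg1 and 1 in Snhg11 over the 12 libraries. Annotated exons cover the whole 2969-base span of Snhg1, 3760 of 4118 bases of Gas5 and 8521 of 10508 bases of Snhg11. Reads on a snoRNA gene inside them could be set aside as ambiguous, so these counts cannot show whether snoRNAs were captured. The snoRNAs themselves were thus not measured here, and the values above are of the host transcripts.

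Other snoRNA hosts, 21 tested of 26, had 3 in the higher and 1 in the lower direction at the unadjusted level, 0 past the adjusted threshold, and a median log2 fold change of 0.10. The shares over all genes tested were 11.8% higher and 9.97% lower. Snhg6 averaged 96.7 ± 23.4 CPM in KO and 65.1 ± 11.03 CPM in WT, Snhg14, the host of the imprinted snoRNA clusters near Snrpn, 212 ± 67.5 CPM in KO and 137 ± 25.9 CPM in WT, and Taf1d 93.6 ± 33.0 CPM in KO and 68.9 ± 10.9 CPM in WT. Like Gas5 and Snhg1, these 3 had their marked libraries in the opposite order, with 61.7 CPM in KO4 and 158 CPM in WT2 for Snhg6. With the GC trend removed, where 15.6% of all genes tested had an unadjusted p under 0.05, 1 of the hosts was higher and 1 lower at that level, and with all 12 libraries 0 were. Snhg14 runs antisense to Ube3a, and without strand, reads on bases annotated as exon in both genes cannot be told apart.

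Of 17 proteins that package snoRNAs (box C/D and H/ACA snoRNP proteins and assembly factors), 0 passed the adjusted threshold, and the median log2 fold change was -0.12. At the unadjusted level 6 lay lower in KO and 1 higher, beside 9.97% of all genes tested lower and 11.8% higher. These counts changed with the libraries used, as given below. Fbl, the methyltransferase of box C/D particles, averaged 17.1 ± 3.53 CPM in KO and 26.1 ± 3.09 CPM in WT (edgeR adjusted p = 0.124), and Ruvbl2, an ATPase of particle assembly, 77.7 ± 24.6 CPM in KO and 112 ± 15.6 CPM in WT. Dkc1, the pseudouridine synthase of H/ACA particles, averaged 156 ± 18.5 CPM in KO and 120.3 ± 13.4 CPM in WT. With the GC trend removed 4 were lower and 1 higher, where 7.66% of all genes tested were lower at that level. Without KO3, 2 were lower and 1 higher, beside 6.5% of all genes lower, and with all 12 libraries 1 was lower and 1 higher, beside 1.55% of all genes lower. Without KO5, 7 were lower and 1 higher past the adjusted threshold, in a fit that called 10.6% of all genes lower.

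Nonsense-mediated decay factors, 16 tested, had 2 higher and 1 lower at the unadjusted level and 0 past the adjusted threshold, beside 11.8% higher and 9.97% lower of all genes at the unadjusted level. Upf2, which bridges UPF1 and the exon junction complex, averaged 43.4 ± 5.87 CPM in KO and 31.2 ± 4.21 CPM in WT, and Upf1, the helicase at the centre of the pathway, 14.9 ± 5.50 CPM in KO and 23.9 ± 4.47 CPM in WT. Magoh, a core protein of the exon junction complex, averaged 459 ± 101 CPM in KO and 351 ± 60.6 CPM in WT. The median log2 fold change was -0.05.

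Of other brain long noncoding RNAs, 23 tested of 33, 1 met the unadjusted level, namely Peg13 in the lower direction, beside 21.8% of all genes tested. The list had a median log2 fold change of 0.17. The next by p with an established name were Rn7sk, which holds the elongation factor P-TEFb inactive, at 26.0 ± 6.99 CPM in KO and 19.4 ± 6.08 CPM in WT, and the dendritic RNA Bc1 at 35.4 ± 8.42 CPM in KO and 28.1 ± 6.92 CPM in WT.

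**Figure D5:**
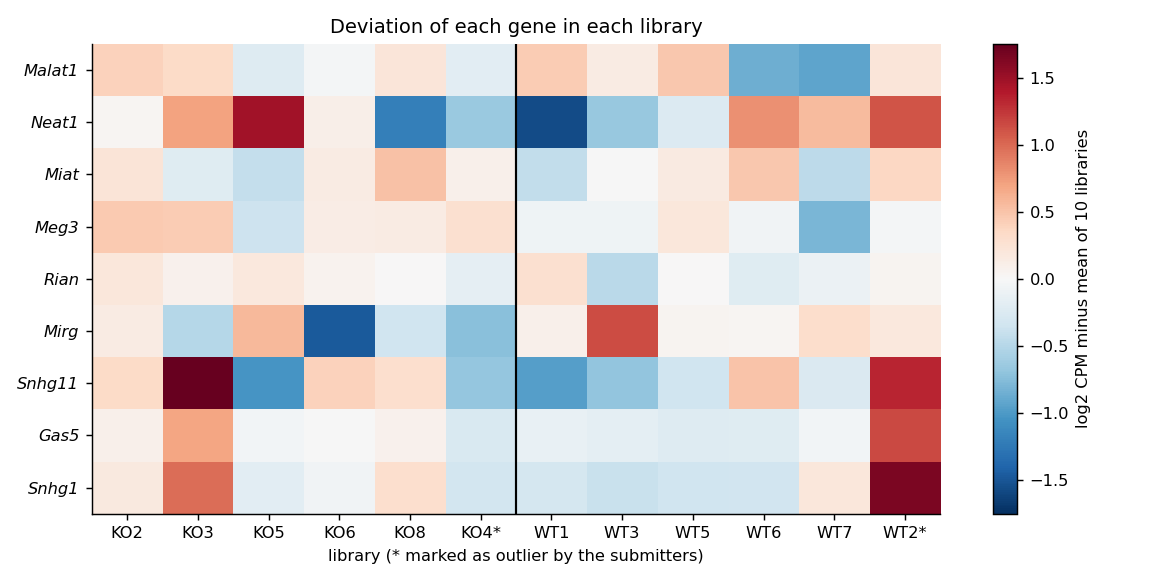
Deviation of log2 CPM of each RNA from its mean over the 10 libraries compared, by library, KO left of WT, with the marked libraries (asterisk) last in each group. Gas5, Snhg1 and Snhg11 are high in KO3 and WT2, while Malat1 is low in WT6 and WT7 and the 3 Dlk1-Dio3 RNAs show no shared pattern.

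The genes most like each RNA were searched among 13441 tested genes by Pearson's r of log2 CPM over the 10 libraries, given as a description because so many were searched. Gas5 was nearest to Cd164, a sialomucin (r = 0.970), Plagl1, an imprinted zinc finger gene (0.951), and Snhg1. Snhg1 was nearest to Magoh (0.973), Cox7b, a subunit of cytochrome c oxidase (0.973), and Pls3, an actin-bundling plastin (0.969). The marked libraries of Magoh lay in the same order as those of Gas5 and Snhg1, at 339 CPM in KO4 and 922 CPM in WT2. These 5 protein-coding genes have GC contents from 41.6% to 46.4%, beside 42.3% for Gas5 and 40.5% for Snhg1. Malat1 was nearest to Rapgef2, an exchange factor of Rap GTPases (0.904), Bbs2 (0.895) and Rabgap1 (0.893), and Miat to Dock3, an exchange factor of Rac (0.912), Tfap4 (0.873) and Trmo (0.872). Meg3 was nearest to Rlbp1, a retinaldehyde-binding protein (0.944), Lrrtm4, a synaptic adhesion protein (0.936), and Nexmif (0.923), and Rian to Atg4a, an autophagy protease (0.906), Wfikkn2 (0.902) and Emc9 (0.871). Over all 12 libraries r was 0.986 for Cd164 and 0.990 for Magoh, but 0.762 for Rlbp1 and 0.386 for Tfap4. Among the other RNAs, GC content was close for Tfap4 (54.6%, Miat 55.1%) and Rabgap1 (44.4%, Malat1 42.5%). It lay further apart for Wfikkn2 (55.6%, Rian 35.8%) and Lrrtm4 (38.4%, Meg3 49.2%). The part of GC content in these correlations was not tested.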

How the data were processed

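Extraction used a column kit for small samples and library construction a NEBNext Ultra kit, which leaves strand unmarked, per the labels' protocols. The deposited tables give unnormalized gene counts in whole numbers. The submitters' processing notes name cutadapt 1.16, STAR 2.5.3a, HTSeq 0.6.1 and DESeq2, with build mm10, whereas settings, annotation release and the strand option were not given there. The 5 summary rows stayed out of library sizes and tests: 64.4% to 67.6% of records were not unique, and unique reads were without a gene in 10.8% to 14.7% and ambiguous in 6.81% to 8.13%.

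The 9 genes and all lists were chosen with earlier results of these data known. Symbols, positions and exon lengths came from GENCODE M21 (53274 identifiers matched; Malat1 and Neat1 under another version number). Counts were filtered with filterByExpr (minimum count 10), scaled with TMM factors and tested with edgeR 4.0.16 (limma 3.58.1, R 4.3.3), 5 KO against 5 WT, with Benjamini-Hochberg adjustment over all genes tested. Exact permutation tests used log2(CPM + 1), correlations log2 CPM with prior count 2 and 100000 resamples. The CPM shown are scaled over all 12 libraries. Named genes were the 9 RNAs, Skil, the 3 smallest p of each list and the 3 genes most like each tested RNA, passing over provisional names. Alternatives were DESeq2 1.42.0, voom, other scalings and filters, added or left-out libraries, KO2 as wild type, a GC offset (spline with 5 degrees of freedom) and a replicate block. The procedure was tested on simulated data, 5 against 5, with 200 changed genes. It called 46.3% of genes changed 1.5-fold, 71.6% of those changed 2-fold and 97.0% of those changed 4-fold, and 5.30% of its calls were false. Smaller changes were not simulated, so a gene not called here may still differ.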

Additional observations from a re-analysis of the deposited data

Results flagged for a closer look

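Libraries far from the rest of their group were looked for in 40 groups of values, and 11 groups had a flag. Chance alone flags about 1 in 20 groups. The groups were KO and WT for 10 genes, each with and without the submitters' outlier, so they overlap and are not independent. KO3 was high for Gas5 (251 CPM, with 165 CPM in the next KO library), for Snhg1 among the 6 KO libraries (97.2 CPM, with 60.8 CPM in the next) and for Snhg11 (2.89 CPM, with 1.03 CPM in the next). WT2, marked as an outlier by the submitters, was high for Gas5 (346 CPM, with 149.9 CPM in the next WT library) and for Snhg1 (155 CPM, with 56.6 CPM in the next). Among the 5 other WT libraries WT7 was high for Snhg1 (56.6 CPM, with 39.7 CPM in the next). WT7 was low for Meg3 among the 6 WT libraries (4.25 CPM, with 7.08 CPM in the next), and WT3 was high for Mirg (1.54 CPM, with 0.785 CPM in the next).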

How the results depend on the processing

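Neat1, Meg3, Mirg, Snhg11 and Skil kept the direction of their log2 fold change in each alternative run, while its size varied. With 1 library left out, Neat1 gave 0.055 (without KO5) to 0.91, Meg3 0.19 (without WT7) to 0.45, Mirg -1.07 (without KO5) to -0.39 (without WT3) and Snhg11 0.48 (without KO3) to 1.39. With the replicate block Meg3 gave 0.052 and Neat1 1.01, and with all 12 libraries Neat1 gave 0.11 and Snhg11 0.40. Gas5 turned from 0.35 to -0.040 with all 12 libraries and to -0.056 with all 12 and the GC offset. Snhg1 turned from 0.52 to -0.090 with all 12 libraries, -0.0075 with WT2 added and -0.084 with all 12 and the GC offset. Malat1 turned to -0.0082 with the GC offset and -0.022 with the replicate block and GC offset, and with 1 library left out gave 0.013 to 0.33 alone and -0.17 to 0.15 with the GC offset. Rian turned to -0.14 with the GC offset, to between -0.29 and -0.047 with a library left out too, and gave 0.10 to 0.29 with a library left out alone. Leaving out 1 library each gave -0.015 to 0.26 for Miat, whose GC offset range was 0.14 to 0.42 and which also turned to -0.37 with the replicate block, -0.27 with the block and GC offset and -0.31 with the block in all 12 libraries. The replicate block compares only libraries whose number occurs in both groups. These are KO3, KO5 and KO6 against WT3, WT5 and WT6, with KO2 and WT2 added in all 12. Miat measured 18.2, 15.8 and 23.2 CPM in KO3, KO5 and KO6, and 20.9, 23.4 and 29.2 CPM in WT3, WT5 and WT6. The cause of these reversals was not tested.

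Of Skil and the 9 RNAs, those past the threshold in an alternative were Gas5 (adjusted p 0.0177) and Snhg1 (0.0196) without KO5, Snhg1 with no filter (log2 fold change 0.52, adjusted p 0.00596) and Skil without KO5 (adjusted p 0.00275), in all 10 fits with the GC offset and a library left out, and with DESeq2 (-0.70), no filter (-0.70), the GC offset (-0.93) and all 12 libraries with the GC offset (-1.04). With 1 library left out, the range was 0.19 to 0.40 for Gas5 (0.032 to 0.20 with the GC offset), 0.29 to 0.65 for Snhg1 (0.079 to 0.39), -0.78 to -0.59 for Skil and, with the GC offset, -0.98 to -0.88 for Skil. The 3 genes called became 449 with DESeq2 (235 higher and 214 lower), 965 with no filter, 1 with all 12 libraries or with KO4 added, 5 with the GC offset, and 0 with KO2 as wild type or with the replicate block, alone, with the GC offset or in all 12 libraries. At an unadjusted p under 0.05, edgeR gave 756 genes with KO2 as wild type and 607 with the block. The block fits rest on fewer libraries, those with a number found in both groups. Leaving out 1 library gave 0 to 3102 (3102 without KO5, 0 without KO2 or WT7), and 3 to 1604 with the GC offset.

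Libraries of equal replicate number had r of -0.05 to 0.11 in 3 pairs of the 10 libraries, beside -0.24 to 0.28 in the other pairs. In all 12 libraries r was 0.33 for KO2 and WT2, -0.05 for KO3 and WT3, 0.13 for KO5 and WT5 and 0.04 for KO6 and WT6. So few pairs cannot decide whether equal numbers mark paired littermates. Measured on the longest transcript, WT levels were 0.471 for Meg3, 2.36 for Rian, 0.221 for Mirg and 54.4 CPM per kb for Gas5, with Rian above Miat (2.28 CPM per kb), and with WT2 included 46.2 for Gas5 and 20.6 CPM per kb for Snhg1. The correlation of Snhg11 and Gas5 passed in all 12 libraries (0.784), while Snhg11 and Snhg1 (0.473) and Gas5 and Snhg1 (0.876) did not without the 2 extreme libraries.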
